A study of Mus musculus with 36 samples.

Results

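Integrins and the proteins of focal adhesions, the sites where a cell holds its matrix and ties it to actin, were followed through the transcriptomes of myoblasts of C2C12, a long-established line of mouse muscle precursors. The 37 genes were a listed set, chosen by name, and all 37 were found among the 49315 genes counted. They were 12 integrin alpha chains, 6 integrin beta chains, 4 genes of talin, kindlin and vinculin, 7 scaffolds and kinases, and 8 actin linkers. Of these, 30 passed the filter on low counts, as did 11558 genes in all.

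The cells were proliferating myoblasts of passage 6 to 10, seeded at 1500 cells/cm2 on coverslips and sealed in automated experiment units. The labels gave 6 groups of 3 polyadenylated RNA libraries: in space without gravity, in space with gravity and on land, each without nanoceria and with it. Nanoceria are cerium oxide nanoparticles, which were coated with serum and supplied at 100 µg/ml in the medium reservoir. The space units stood in an incubator set at 37 °C on the space station and were fixed in RNAlater on day 9 after launch. The land groups came from a later ground run in the same hardware, so flight and the run it belonged to cannot be told apart. All groups were 1 cell line without any genetic change named in the labels. Nothing says more of the replicates than that they were separate experiment units, so p-values measure only the spread between these units.

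An integrin is a dimer of an alpha and a beta chain that binds matrix proteins outside the cell. Inside, talin and kindlin bind the beta tail and switch the receptor on, and vinculin, paxillin, focal adhesion kinase and the complex of integrin-linked kinase, PINCH and parvin then join. Alpha-actinin, filamin, zyxin, VASP and tensin connect this plaque to actin. In skeletal muscle, alpha 7 beta 1 is the main integrin that binds laminin, and beta 1 is the common partner of most alpha chains.

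The start regions of the most abundant and of an undetected member show how their promoters differ in letters. Each sequence is the 250 bases upstream of the first start that RefSeq lists on GRCm38.p6, read 5′ to 3′ on the gene's strand, and the capitals mark CG dinucleotides, which read the same on both strands. Itgb1, the common beta chain, had 21 CG in chr8:128685404-128685653 on the plus strand, and the undetected Itga8, an alpha chain that binds RGD ligands, had 18 CG in chr2:12301945-12302194 on the minus strand.
Itgb1: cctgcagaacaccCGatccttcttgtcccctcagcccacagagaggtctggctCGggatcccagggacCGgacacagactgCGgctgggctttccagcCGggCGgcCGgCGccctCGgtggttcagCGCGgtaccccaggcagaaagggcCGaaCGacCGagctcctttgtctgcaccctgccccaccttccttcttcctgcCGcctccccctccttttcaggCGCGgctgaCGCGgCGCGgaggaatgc
Itga8: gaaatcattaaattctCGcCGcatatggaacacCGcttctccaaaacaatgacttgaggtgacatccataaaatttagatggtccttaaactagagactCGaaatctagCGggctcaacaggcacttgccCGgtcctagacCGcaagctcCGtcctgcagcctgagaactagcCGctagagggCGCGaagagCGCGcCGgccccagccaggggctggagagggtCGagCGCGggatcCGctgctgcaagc
Such entries were found for 29 of the 37 genes. The 22 that passed the filter held a median of 19.5 CG per 250 bases and the 7 below it a median of 10.0. Over all 19780 genes of the files with an entry, 92.7% held at least 1 CG. The median was 17 for the 8470 genes past the filter and 3.00 for the 11310 genes below it. This is a count of letters and says nothing of methylation, which was not measured.

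Total counts ran from 2986628 to 11378178 in 17 libraries and were 23858 in the library of space with gravity and nanoceria replicate 3. There 3 counts were worth 35.7 CPM (a gene's counts relative to the scaled library size), against 0.193 to 1.11 CPM in the others, and 25 of the 30 members tested had their group's lowest value in it. Levels and ranges below leave that library out unless it is named, and the fits keep it. The 6 genes Lars2, Gm23935, Gm15564, Gm24270, Gm24187 and Gm25911 took 49.6 to 76.3% of counts on land and 40.7 to 70.3% in space without gravity. They took 24.5 to 54.4% in space with gravity, and 23.8% in the smallest library. This share moved with the comparisons of space with land, and also with that of gravity within space. Of the myoblast markers, all 10 were past the filter, with a summed level of 1241 to 5072 CPM, led by Ncam1 and Vim. Myod1, the defining muscle regulator, had 99 counts in all and was detected in 10 of 18 libraries. Cdh15 and Tead4 were also low, with 122 and 149 counts, each in 15 of 18 libraries. None of the 5 endothelial and none of the 5 epithelial markers passed the filter, nor did blood markers other than Cd68 (1 of 6) or adipocyte markers other than Lpl (1 of 5). The endothelial marker Tek still had 303 counts and reached 21.1 CPM. The fusion markers Myog and Myh3 also fell below it, and 3 of 10 myotube markers passed. In bulk RNA, fewer cells of a type and less RNA per cell cannot be told apart.

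Among the alpha chains the level per kilobase of gene length was highest for Itgav, Itga5 and Itga7. Itgav, whose product binds RGD-bearing ligands such as vitronectin and fibronectin, had 10.5 ± 9.55 CPM per kilobase (SD, n = 17 libraries). Itga5, the classical fibronectin receptor chain, had 6.03 ± 4.09 and Itga7, the muscle laminin receptor chain, 2.09 ± 0.98 on the same scale. Itga6 and Itga3, further laminin receptor chains, had 0.96 ± 0.57 and 0.46 ± 0.30, and Itga11, a collagen receptor chain, 0.48 ± 0.65. Taken as a share of all 12 alpha chains per length, Itgav made up a median of 48.9% and was the highest alpha chain in 12 of 17 libraries. Itga5 made up 31.0% and led in the remaining 5 of 17, so the order of these neighbours was not the same in every library. Itga7 made up a median of 10.7%, between 5.13% and 27.2%.

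The other 6 alpha chains were at or near 0. Itga1 had 30 counts over all 18 libraries, Itga4, a chain for fibronectin and VCAM1, 7 counts, Itga10 6 counts, and Itga2 and Itga9 2 counts each. Itga8 had none. These myoblasts thus gave few or no counts for 3 of the 4 collagen receptor alpha chains listed, Itga1, Itga2 and Itga10, and 191 counts for the remaining chain, Itga11. With the exception of the smallest library, 3 counts were worth at most 1.11 CPM, so levels below that were not detectable in every library.

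Itgb1 was the highest of all 37 genes in each of 17 libraries, at 137.7 ± 77.0 CPM per kilobase (SD, n = 17), and 98.5% of all genes tested were lower. It made up a median of 94.9% of the beta chains per length, from 69.3% to 97.9%. In space without gravity Itgb1 had 625, 256 and 727 CPM without nanoceria (replicates 1 to 3) and 746, 851 and 609 CPM with it. With gravity the values were 489, 574 and 454 CPM without nanoceria and 497, 428 and, in the smallest library, 179 CPM with it. On land they were 226, 242 and 1477 CPM without nanoceria and 821, 275 and 256 CPM with it. The 5 libraries of space with gravity lay close together, while those of land held both the lowest and the highest values, and all regimes overlapped. In the fit, Itgb1 differed between space with gravity and land by a log2 fold change of -0.32 with a 95% interval of -1.41 to 0.78, and between space without gravity and land by 0.22 with an interval of -0.88 to 1.31.

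The remaining beta chains were far lower. Itgb5, a partner of alpha v that binds vitronectin, had 5.38 ± 5.38 CPM per kilobase, Itgb7, known mainly from leukocytes, 1.71 ± 1.53, and Itgb3, the other well-known partner of alpha v, 1.36 ± 1.75 (SD, n = 17 each). Itgb4, the partner of alpha 6 in hemidesmosomes, had 0.25 ± 0.16, and Itgb8 was below the filter with 102 counts. The highest share of a beta chain other than Itgb1 was that of Itgb5 in land with nanoceria replicate 3, at 27.6%. The same library held the highest Itga5 share, 63.0% of alpha chains, and the lowest Itgav share, 12.1%. Itgb3 and Itga11 varied most between replicates, with biological coefficients of variation of 1.03 and 0.98, against 0.66 for all genes in common.

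**Figure D1:**
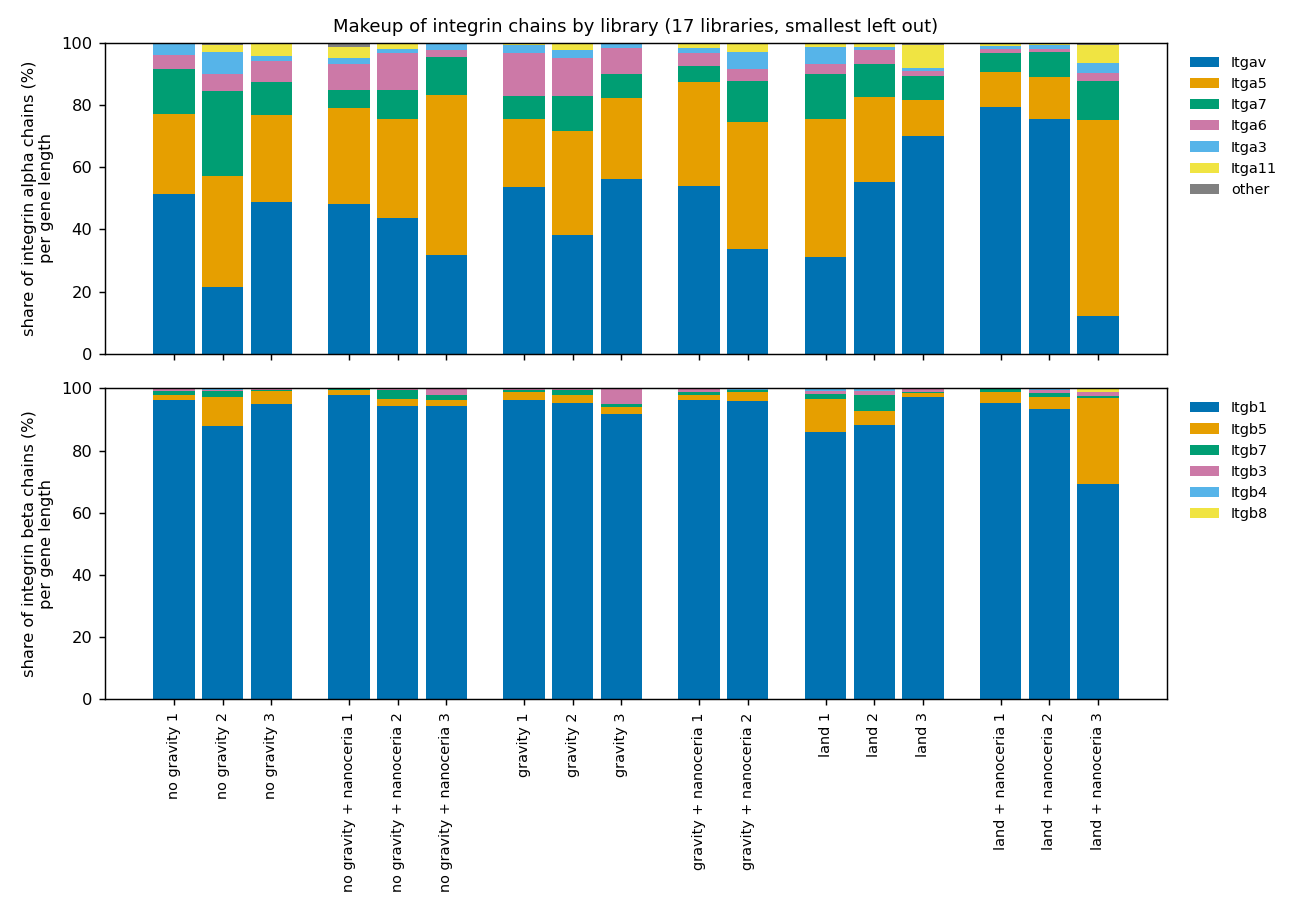
Share (%) of each integrin alpha chain (upper panel) and beta chain (lower panel) among all listed chains of its kind, by library, from levels per gene length. 17 libraries are stacked bars, grouped by regime and nanoceria, and Itgb1 takes 69.3% to 97.9% of the beta chains while Itgav and Itga5 share most of the alpha chains.

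Among the proteins that switch integrins on, Fermt2 (kindlin-2) had the highest level per length, 15.5 ± 6.41 CPM per kilobase, followed by Tln1 (talin-1) with 11.8 ± 5.90 (SD, n = 17 each). Tln2, the second talin, had 0.67 ± 0.53, and Vcl (vinculin) 1.80 ± 1.13 CPM per kilobase. In CPM, Fermt2 had 44.7, 81.2 and 65.8 in space without gravity and 75, 56.4 and 36.6 there with nanoceria. With gravity it had 50, 78.6 and 55.7, and with nanoceria 61.8, 117 and, in the smallest library, 0. On land it had 87.6, 46.8 and 37.1, and with nanoceria 29.2, 28.4 and 34.2. The land libraries with nanoceria were the 3 lowest of all 17, but land without nanoceria reached into the range of space. Its log2 fold change was 0.61 between space with gravity and land (edgeR adjusted p = 0.383), with a 95% interval of -0.36 to 1.59 that includes 0.

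The scaffold with the highest level per length was Lims1 (PINCH1, the adaptor of integrin-linked kinase), at 12.3 ± 5.23 CPM per kilobase, then Ptk2 (focal adhesion kinase) with 8.53 ± 6.14, Bcar1 (p130Cas, a docking protein for Src and Crk) with 4.62 ± 4.10, and Parva (alpha-parvin) with 2.76 ± 1.76 (SD, n = 17 each). Src, Pxn (paxillin) and Ilk were below 1 CPM per kilobase, at 0.81 ± 0.60, 0.70 ± 0.40 and 0.44 ± 0.31. Lims1 values in space without gravity were 48.3, 86.2 and 65.4 CPM, and with nanoceria 51.8, 91.3 and 53.8 CPM. With gravity they were 68.4, 67.0 and 134 CPM, and with nanoceria 50.4, 65.5 and, in the smallest library, 0 CPM. On land they were 55, 44.2 and 30.9 CPM, and with nanoceria 30.4, 33.1 and 48.5 CPM. All 3 libraries of space with gravity without nanoceria lay above both land groups. Over both nanoceria levels, space with gravity (50.4 to 134 CPM) and land (30.4 to 55 CPM) overlapped.

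Ilk and Vcl carry a limit of counting. Their exons share bases with genes on the other strand: 2106 of the 2744 exon bases of Ilk with Taf10 and 355 with Rrp8, and 2090 of the 8191 exon bases of Vcl in the GENCODE annotation with Ap3m1. The library kit named in the labels does not mark strand, and the counting settings are not given in the sources used here. Reads from these shared bases cannot be told apart, so the low levels of Ilk (127 counts in all) and of Vcl are uncertain. Itga10 shares 1739 of its 5186 exon bases with Gm42957 on the same strand, so its 6 counts are uncertain too.

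Zyx, which encodes zyxin, a LIM protein of tension-bearing adhesions, led the actin linkers with 30.8 ± 11.4 CPM per kilobase and was the next highest gene after Itgb1. Actn1 and Actn4 (alpha-actinins), Flna and Flnc (filamins) had 16.2 ± 7.00, 10.6 ± 19.2, 12.6 ± 5.19 and 3.31 ± 1.08 CPM per kilobase, and Vasp, an actin elongation factor, 2.31 ± 1.08 (SD, n = 17 each). The tensins Tns3 and Tns1 had 1.42 ± 0.75 and 1.39 ± 0.82 on that scale. Zyx had 143, 162 and 164 CPM in space without gravity, and 181, 120.3 and 97.7 with nanoceria. In space with gravity the values were 124, 137 and 209 CPM, and with nanoceria 127, 277 and, in the smallest library, 23.8. The land libraries had 246, 142 and 70.0 CPM, and with nanoceria 215, 284 and 123. Every regime overlapped with the others for Zyx, and its 4 averaged log2 fold changes lay between -0.31 and 0.05.

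As neighbours in this order of level, Zyx was above Actn1 in 15 of 17 libraries, but Actn1 was above Fermt2 in only 9 and Flna above Lims1 in 9 of 17. The middle of the order is therefore not fixed by these libraries. The median level of the 30 members tested was 2.53 CPM per kilobase, against 2.35 for all 11558 genes tested.

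**Figure D2:**
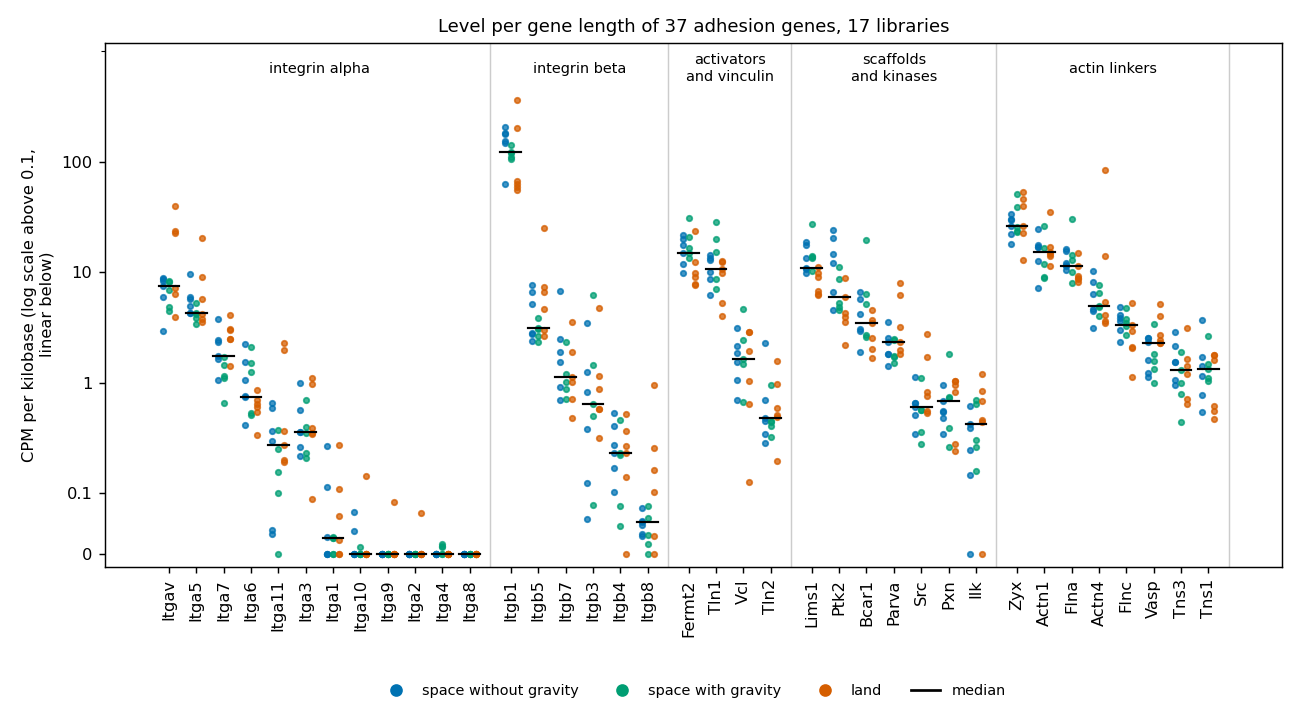
CPM per kilobase of gene length for the 37 genes, grouped by role, on an axis that is logarithmic above 0.1 and linear below. Each point is 1 of 17 libraries coloured by regime, black lines are medians, and Itgb1 lies above all other genes while 6 alpha chains lie at or near 0.

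Nanoceria were compared with their absence first. Averaged over the 3 regimes, 0 of 30 members passed an adjusted p of 0.05 in edgeR's quasi-likelihood test, against a background of 0.0% of 11558 genes, and DESeq2 and limma voom called none of the members either. At an unadjusted p under 0.05 it was 1 of 30, against 6.54% of all genes. Positive values mean higher with nanoceria: 19 members were above 0 and 11 below, with a median log2 fold change of 0.10 beside -0.03 for all genes. For 0 members did the CPM of all treated libraries lie outside the range of all untreated ones, against 0.0173% of genes.

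Actn4, an alpha-actinin that bundles actin filaments, had the smallest p among members higher with nanoceria. It had 28.5, 38.9 and 27.3 CPM in space without gravity and 62.5, 50.1 and 19.1 CPM there with nanoceria. With gravity it had 47.2, 30.4 and 24.5 CPM, and with nanoceria 29.9, 40.0 and, in the smallest library, 0. On land it had 32.7, 25.1 and 21.4 CPM, and with nanoceria 515, 22.2 and 85.3 CPM. A single library, land with nanoceria replicate 1, stood far above all others. The averaged log2 fold change was 1.06 ± 0.49 (SE), with an edgeR adjusted p of 0.752, and without that library it was 0.41. On land alone the log2 fold change was 2.97 ± 0.89 (SE) with an adjusted p of 0.314, and 1.02 without that library. DESeq2, with an adjusted p of 0.022, and edgeR without the filter on low counts, with an adjusted p of 0.0113, called Actn4 on land. These fits called 1.42% and 1.99% of all genes there. Lims1 had the smallest p among members lower with nanoceria, at -0.42 ± 0.35 (SE) and an edgeR adjusted p of 0.858, or -0.26 without the smallest library.

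Within single regimes edgeR called 0 of 30 members for nanoceria, beside 0.0% of all genes in space without gravity, 0.0% in space with gravity and 0.0% on land. Unadjusted p under 0.05 was reached by 1 member in space without gravity (Tln2, background 3.97%) and 1 on land (Actn4, background 10.2%). In space with gravity it was 3 (Itga6, Pxn and Bcar1, background 4.46%). There Pxn had 47.7 CPM in the smallest library, and Bcar1 88.2 CPM in replicate 2 with nanoceria. The test of whether the nanoceria effect differs between regimes called 0 members at the adjusted threshold, beside 0.0% of genes, and 1 at the unadjusted one (Actn4), beside 6.14%.

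Gravity was compared with its absence within the space groups. Averaged over nanoceria, 0 of 30 members passed the adjusted threshold in edgeR, DESeq2 or limma voom, and edgeR's background was 0.0%. At an unadjusted p under 0.05 it was 2 of 30, against 5.85% of genes. 20 members were higher without gravity and 10 lower, with a median log2 fold change of 0.19 beside 0.04 for all genes. When the share of counts taken by Lars2 and the other dominant genes entered the model, the members' median turned to -0.21. No member had ranges that did not overlap (background 0.658%).

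Ptk2, the focal adhesion kinase, had the smallest p. Its values in space without gravity were 72.4, 33.2 and 60.6 CPM, and with nanoceria 101, 22.6 and 119.9 CPM. With gravity they were 43.1, 55.5 and 26.0 CPM, and with nanoceria 22.7, 24.4 and, in the smallest library, 0 CPM. On land they were 43.8, 29.7 and 10.8 CPM, and with nanoceria 17.8, 21.2 and 19.5 CPM. The mean was 68.3 ± 37.7 CPM without gravity (SD, n = 6) and 34.3 ± 14.4 with gravity (SD, n = 5), and replicate 2 of the nanoceria group without gravity lay below every library with gravity but the smallest. The log2 fold change was 1.23 ± 0.48 (SE), with a 95% interval of 0.22 to 2.24 and an edgeR adjusted p of 0.733, so Ptk2 did not pass the test across all genes. Leaving out each library in turn gave values from 1.03 to 1.45.

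Itga7 was the other member at an unadjusted p under 0.05, with a log2 fold change of 0.86 ± 0.40 (SE) and an edgeR adjusted p of 0.834. Pxn, the adaptor paxillin, had the smallest p among members lower without gravity. It had 2.81, 7.72 and 4.46 CPM without gravity, and 4.51, 5.57 and 3.89 CPM with nanoceria. Where gravity was present, the gene had 5.93, 3.18 and 2.14 CPM, and with nanoceria 6.02, 15.0 and, in the smallest library, 47.7 CPM, which was 4 counts. Ground samples gave 8.43, 8.44 and 1.97 CPM, and with nanoceria 6.66, 7.81 and 2.28 CPM. The difference of -0.70 ± 0.53 (SE; edgeR adjusted p = 0.95) was -0.37 without the smallest library.

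Without nanoceria, gravity withdrawn called 0 members (background 0.0%), with 1 at an unadjusted p under 0.05, Tln2 (background 4.05%). With nanoceria it called 0 members (background 0.0%), with 2 at that level, Pxn and Ptk2 (background 5.78%).

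**Figure D3:**
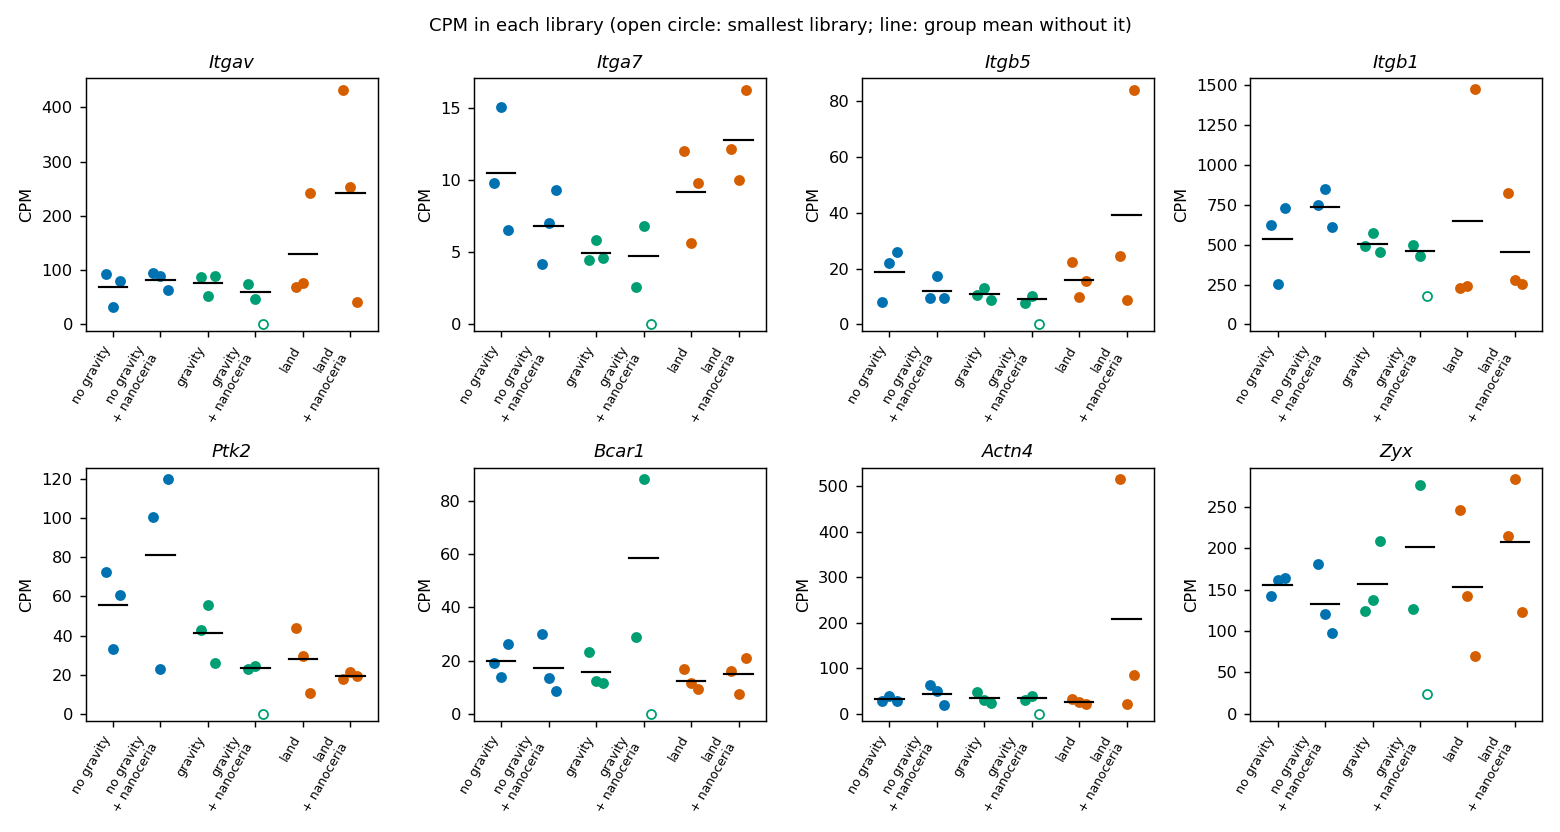
CPM of 8 adhesion genes in each of the 18 libraries, by group, where the open circle is the smallest library and the line is the group mean without it. Ptk2 reaches 119.9 CPM in space without gravity with nanoceria, Actn4 reaches 515 CPM in 1 land library with nanoceria.

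The third comparison set both space regimes against the ground run. Between space with gravity and land, over both nanoceria levels, edgeR called 0 of 30 members, while it called 14.0% of all genes. At an unadjusted p under 0.05 it was 6 of 30 members, or 20.0%, all lower in space, beside 31.9% of all genes. 12 members were higher in space and 18 lower, and their median log2 fold change was -0.33 beside -0.04 for all genes. No member had ranges that did not overlap, against 7.82% of genes. Both counts of members were below the background share. The summed level of the 10 myotube markers was 2.96 to 10.8 CPM in space with gravity. It was 5.11 to 122.6 CPM on land without nanoceria and 5.92 to 13.7 CPM there with it. Mitochondrial genes took 0.107 to 0.453% of the counts outside the dominant genes in space with gravity, 0.364 to 0.787% in space without gravity and 0.174 to 1.45% on land. The part of both in the comparisons with land was not tested.

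The 6 members were 4 integrin chains, Itga7, Itgb5, Itgav and Itga11, with Parva and Src. Itga7 is named for the smallest p, Itgav as the highest alpha chain, and the others after their values were seen. All 6 were thus picked by values of these data. Itga7 had 9.83, 15.1 and 6.59 CPM in space without gravity, and 4.22, 7.05 and 9.31 CPM with nanoceria. With gravity it had 4.45, 5.84 and 4.61 CPM, and with nanoceria 2.61, 6.85 and, in the smallest library, 0. On land it had 12.1, 5.63 and 9.86 CPM, and with nanoceria 12.2, 10.0 and 16.3 CPM. Land and space with gravity overlapped through land replicate 2 without nanoceria only. The mean was 4.87 ± 1.60 CPM in space with gravity (SD, n = 5) and 11 ± 3.51 on land (SD, n = 6). The log2 fold change was -1.21 ± 0.40 (SE), and edgeR's adjusted p of 0.0513 just missed the threshold.

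Itgav had 92.7, 31.7 and 80.4 CPM in space without gravity, and 95.5, 88.7 and 63.5 CPM with nanoceria. Libraries with gravity gave 88.0, 51.7 and 89.6 CPM, and with nanoceria 73.7, 47.3 and, in the smallest library, 0. In the ground run the values were 68.2, 77.2 and 242 CPM, and with nanoceria 432, 253 and 42.0 CPM. High values stood in 3 of the 6 land libraries, and the other 3 lay within the range of space. The log2 fold change against land was -1.57 ± 0.58 (SE; edgeR adjusted p = 0.0755) with gravity and -1.24 ± 0.57 (SE; adjusted p = 0.193) without gravity. These 2 comparisons share the land libraries.

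Itgb5 averaged 10.1 ± 1.97 CPM in space with gravity (SD, n = 5) and 27.5 ± 28.4 on land (SD, n = 6), where replicate 3 with nanoceria reached 84.0 CPM. Its log2 fold change was -1.41 ± 0.51 (SE; edgeR adjusted p = 0.0683), and -0.77 without that library. The collagen receptor chain Itga11 gave -2.28 ± 0.93 (SE; adjusted p = 0.103), and -1.17 without land replicate 3. Parva and Src gave -0.96 ± 0.43 and -1.09 ± 0.50 (SE), with edgeR adjusted p of 0.132 and 0.146. Leaving out 1 library at a time gave -1.09 to -0.42 for Parva and -1.32 to -0.55 for Src. None of the 6 passed the test across all genes.

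Another test or another scaling changed these calls. DESeq2 called 7 members lower in space with gravity, Itga5, Itga7, Itga11, Itgav, Itgb5, Parva and Actn4, with adjusted p from 0.00298 to 0.0335, while it called 23.3% of all genes. The use of DESeq2's size factors in edgeR called Itga7, Itgav and Itgb5 beside 18.9% of all genes, moved the median of all genes from -0.04 to -0.39 and that of the members from -0.33 to -0.67, and turned the split of all called genes from 834 higher and 779 lower to 628 and 1558. Limma voom called none of the members, beside 1639 of 11558 genes. When the dominant share of counts entered the model, edgeR called 1 of 11558 genes and no member, and the members' median turned to 0.35. Leaving out 1 library brought in 1 member in 4 of 12 fits: Itga7 (-1.60) without replicate 2 of space with gravity and nanoceria, and, among land libraries with nanoceria, Itgb8 (-2.57), which then passed the filter, without replicate 1, Itgb5 (-1.60) without replicate 2 and Itgav (-1.79) without replicate 3. These fits called 10.2%, 11.7%, 13.0% and 8.36% of all genes, in the same order.

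Bcar1 had the smallest p among members higher in space with gravity. Without gravity it had 19.1, 13.9 and 26.2 CPM, and with nanoceria 29.8, 13.4 and 8.63 CPM. With gravity it had 23.4, 12.4 and 11.7 CPM, and with nanoceria 29, 88.2 and, in the smallest library, 0. On land it had 16.7, 11.5 and 9.20 CPM, and with nanoceria 15.9, 7.61 and 20.8 CPM. The value of 88.2 CPM was the highest of all, and the other larger libraries lay between 7.61 and 29.8 CPM. The log2 fold change was 0.98 ± 0.50 (SE; edgeR adjusted p = 0.186), and 0.45 without that library.

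Between space without gravity and land, over both nanoceria levels, edgeR called 0 of 30 members beside 5.25% of all genes. At an unadjusted p under 0.05 it was 2 of 30, Ptk2 and Itgav, beside 24.7% of genes. 14 members were higher in space and 16 lower, with a median log2 fold change of -0.16 beside -0.02 for all genes. With the dominant share in the model the members' median turned to 0.13. No ranges failed to overlap among the members (background 2.91%). Ptk2 averaged 68.3 ± 37.7 CPM without gravity and 23.8 ± 11.5 on land (SD, n = 6 each), which is 1.51 ± 0.48 in log2 terms (SE; edgeR adjusted p = 0.0663). It passed when no filter was applied (adjusted p = 0.0366) or when replicate 2 of the nanoceria group without gravity was left out (log2 fold change 1.77, adjusted p = 0.047), beside 5.82% and 3.34% of all genes in those fits. DESeq2 called 1 member, Itgav, at -1.48 and an adjusted p of 0.0292, beside 13.2% of all genes. Limma voom called no member, beside 989 of 11558 genes.

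**Figure D4:**
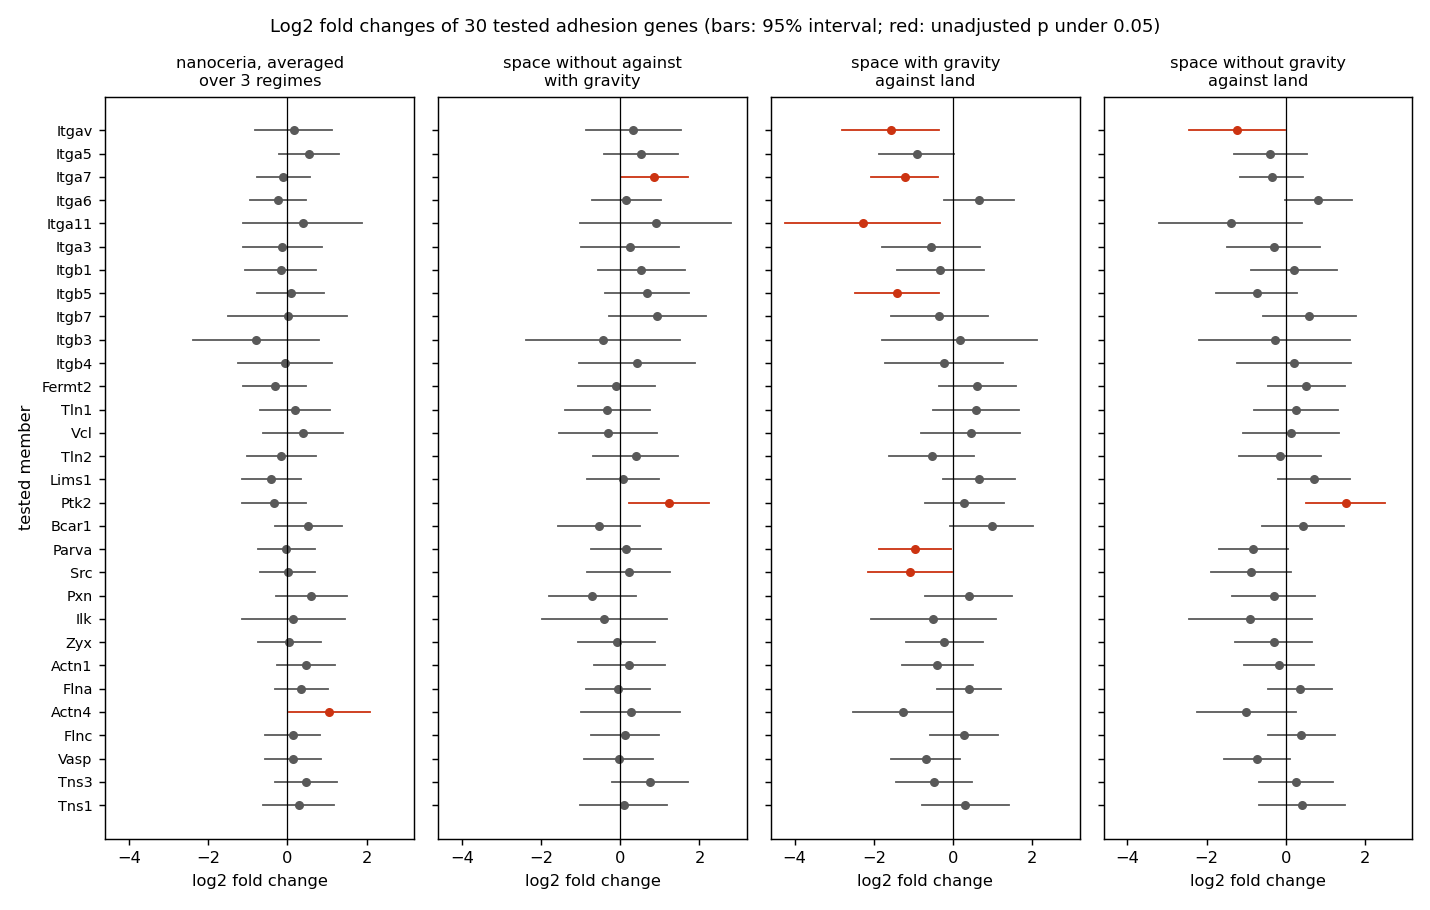
Log2 fold changes of the 30 tested members in the 4 averaged comparisons, from edgeR, with bars for 95% intervals and red for an unadjusted p under 0.05. The 6 red members of the comparison of space with gravity and land all lie below 0, and most intervals cross 0.

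Split by nanoceria, edgeR called 0 of 30 members in each of the 4 comparisons with land. The background was 0.0% for space with gravity without nanoceria, 0.00865% with it, 0.0% for space without gravity without nanoceria, and 0.0433% with it. At an unadjusted p under 0.05 the members were 3 for space with gravity without nanoceria (Itga6, Itga11 and Src, background 21.5%) and 5 with it (Itga7, Itgav, Itgb5, Bcar1 and Actn4, background 20.5%). For space without gravity they were 0 without nanoceria (background 13.0%) and 3 with it (Itgb5, Ptk2 and Actn4, background 19.2%). DESeq2 called 3 members with nanoceria for space with gravity (Itgav, Itgb5 and Actn4, beside 8.15% of all genes) and 1 for space without gravity (Actn4, beside 7.08%), all lower in space. Itga6, a laminin receptor chain, was the only member called by limma voom in any comparison, at 1.46 for space with gravity against land without nanoceria (adjusted p = 0.0384), where voom called 20.6% of all genes. The test of whether the difference between space with gravity and land depends on nanoceria called 0 members, beside 0.0% of genes, and 2 at the unadjusted threshold, Actn4 and Pxn, beside 6.78%. The Actn4 value includes the land library of 515 CPM, and that of Pxn the smallest library with 47.7 CPM.

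Integrin ligands and further adaptors were taken from 2 wider lists. Of 30 matrix ligands, 25 were tested. With gravity against land 0 rose and 5 fell, or 20.0% of those tested beside 14.0% of all genes, with a list median of -0.29. The 5 were Thbs1 and Thbs2 (thrombospondins), Postn (periostin), Spp1 (osteopontin) and Hspg2 (perlecan). Thbs1 ranged from 31.5 to 95.4 CPM in the 5 libraries of space with gravity and from 108 to 3456 CPM on land, which gave -3.66 ± 0.87 in log2 terms (SE; edgeR adjusted p = 0.0146). All land libraries were thus above these 5 libraries of space with gravity for this ligand, and ranges failed to overlap for 7.82% of all genes. Its call was lost without replicate 1 of space with gravity and nanoceria (-3.48, adjusted p = 0.057), and the value was -1.91 without land replicate 3.

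Postn gave -5.27 ± 1.36 (SE; edgeR adjusted p = 0.0201), and -2.68 without land replicate 3 with nanoceria. Its levels were 0.159 to 0.344 CPM in space with gravity and 0.2 to 29.9 CPM on land. In space with gravity these were 1 to 4 counts per library without nanoceria and 1 to 3 with it. The lowest library of each land group also had 1 count, so the size of this change is uncertain. Without land replicate 3 with nanoceria Spp1 moved from -2.46 to -1.36 and Thbs2 from -3.23 to -1.62. Both lost the call in that fit, as did Postn (edgeR adjusted p = 0.189). Hspg2, at -1.38, kept its call in 2 of 12 fits that left out 1 library, Spp1 and Thbs2 in 6 of 12 each, and Postn in 9 of 12. With the dominant share in the model none of the 5 was called. In the other averaged comparisons none of the 25 ligands passed in edgeR. At an unadjusted p under 0.05 it was 0 for nanoceria, 0 for gravity withdrawn and, for space without gravity against land, 9 (3 higher and 6 lower in space), beside 6.54%, 5.85% and 24.7% of all genes. The list medians were 0.18 for nanoceria, 0.42 for gravity withdrawn and 0.06 for space without gravity against land. Thbs1 and Thbs2 were at 1.51 and 1.14 for gravity withdrawn and at -2.15 and -2.09 without gravity against land, none past the adjusted threshold.

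Of 88 further adaptors, kinases and GTPase regulators, 81 were tested. In space with gravity against land 5 rose and 3 fell, or 9.88% beside 14.0% of all genes, with a list median of -0.23. Those higher in space were Krit1, which binds the integrin regulator ICAP1, the Rac activator subunit Elmo1, the kinase Abl1, the zyxin relative Lpp and Cd47, a membrane partner of alpha v beta 3. Krit1 had 42.3 to 91.8 CPM in space with gravity and 5.21 to 34.5 CPM on land, with 2.21 ± 0.46 as log2 fold change (SE; edgeR adjusted p = 0.00903). Elmo1 had 17 to 47 CPM in space with gravity and 0.657 to 7.77 CPM on land, a log2 fold change of 2.83 ± 0.63 (SE; adjusted p = 0.0114). For both genes the libraries did not overlap with the smallest left out, as for 7.82% of all genes. Each kept its call in 12 of 12 fits that left out 1 library, though not with the dominant share in the model.

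Cd47 had 247 to 497 CPM in space with gravity and 95.3 to 175 CPM on land, also without overlap, at 1.39 ± 0.41 (SE; edgeR adjusted p = 0.0315). Lpp gave 1.88 and Abl1 2.04, with adjusted p of 0.0231 and 0.0417. Lower in space were Pfn1, the actin monomer binder profilin, at -1.42 (adjusted p = 0.0175), Parvb, the parvin of the integrin-linked kinase complex that muscle also makes, at -1.63 (adjusted p = 0.0335), and Actn3, the fast-fibre alpha-actinin, at -4.30 (adjusted p = 0.0403) from 57 counts in all. Actn3 is also 1 of the 10 myotube markers. Their summed level reached 122.6 CPM on land without nanoceria, 13.7 CPM there with it and 10.8 CPM in space with gravity. Actn3 itself reached 2.39 CPM on land without nanoceria and 6.51 CPM with it. Lpp and Pfn1 were called in 8 of 12 fits that left out 1 library, Parvb in 4, Abl1 and Cd47 in 3, and Actn3 in 2.

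In space without gravity against land 2 adaptors rose and 1 fell, or 3.70% beside 5.25% of all genes. Krit1 was at 1.75 ± 0.45 and Lpp at 1.77 ± 0.50, and Parvb at -2.21 ± 0.48 (SE), with edgeR adjusted p of 0.0349, 0.0484 and 0.0207. They were called in 3, 2 and 5 of 12 fits that left out 1 library. Parvb had 4.45 to 8.82 CPM without gravity and 3.29 to 58.9 CPM on land, where 1 library lay below all of space. For nanoceria and for gravity withdrawn none of the 81 passed in edgeR, with 3 each at an unadjusted p under 0.05, beside 6.54% and 5.85% of all genes, and list medians of 0.07 and 0.14. The smallest of those p values belonged to Crkl, an adaptor of p130Cas, for nanoceria (1.55 ± 0.63 SE, adjusted p = 0.752), and to Sos1, a Ras exchange factor, for gravity withdrawn (-1.30 ± 0.44 SE, adjusted p = 0.66).

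Spread between replicates set the limits of these comparisons. Biological coefficients of variation of the 30 members ran from 0.43 for Flnc to 1.03 for Itgb3. Some libraries held the highest value of their group for most members: replicate 2 of space with gravity and nanoceria did so for 23 of 30 members, land replicate 1 for 21 and land with nanoceria replicate 3 for 20. In the first of these groups the only other library of usual size is replicate 1. The remaining 15 libraries held the highest value for 3 to 16 of 30 members. The 3 libraries named held the highest value for 42.8, 38 and 37.9% of all genes tested. Standard errors of the members' log2 fold changes between space with gravity and land ran from 0.39 to 0.93, with a median of 0.51.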

How the data were processed

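Polyadenylated RNA of C2C12 cells was read from 18 deposited count files, which hold raw whole-number counts per Ensembl gene made by the authors, 1 library per file, with gene length and exon coordinates per the file headers. Per the submitters' processing notes, CASAVA, Trimmomatic 0.36.29, STAR, Subread and featureCounts were used with GRCm38.p6, but their settings are not given in the sources used here. The 18 small RNA samples were not analysed here. The listed genes were matched by Ensembl identifier, and 28 of 37 had the start and end of the GENCODE model. The members and lists were chosen with earlier results of these data known.

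The tests used edgeR 4.0.16 (R 4.3.3; filterByExpr over the 6 groups, TMM scaling, group-means model on 18 libraries, robust quasi-likelihood fit). P-values were adjusted by Benjamini-Hochberg over 11558 genes, with a threshold of 0.05. The smallest library had a TMM factor of 3.86, against 0.403 to 1.37 in the others, and 23858 counts. A standard error is the size of the log2 fold change over the square root of edgeR's F, and 95% intervals use its total degrees of freedom. Levels are TMM-scaled CPM, and levels between genes are divided by the deposited gene length. Values were given in every library for the members with the smallest p in each direction of each averaged comparison and the highest level in each role group. Of the wider lists, genes past the threshold and those with the highest or lowest log2 fold change at an average log2 CPM of at least 3 could be named. All replicates differed beyond sampling noise. Alternatives were DESeq2 1.42.0, its size factors, limma 3.58.1 voom, 2 other filters, fewer libraries, removal of dominant genes and their share as a covariate. The script was tested on simulated data.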

Additional observations from a re-analysis of the deposited data

How the results depend on the processing

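No paired analysis was possible because replicate numbers follow the order of the records and pair no libraries across groups. Members called numbered 0 in every comparison of the edgeR fit. The following counts differed under an alternative. Between space with gravity and land over both nanoceria levels, 3 were called with DESeq2 size factors (18.9% of all genes) and 7 with the DESeq2 test (23.3%). Without the filter it was 1 of 36 members (Itga11), beside 2242 of 25194 genes. At a mean of at least 50 counts it was 2 of 20 members (Itgav and Itgb5), beside 1237 of 5850 genes. For that comparison with nanoceria, the counts were 3 with the DESeq2 test and 1 (Actn4) without the filter. The share of all genes called in the latter fit is not given here. Without nanoceria, limma voom called 1 (Itga6). For space without gravity against land, the DESeq2 test called 1 (Itgav) and the fit without the filter 1 (Ptk2) when averaged, and the DESeq2 test 1 (Actn4) with nanoceria. On land, nanoceria gave 1 (Actn4) with the DESeq2 test and 1 without the filter. Leaving out 1 library gave 0 to 1 members in both averaged comparisons with land. Over all genes, nanoceria moved from 0 calls to 1 (DESeq2) and 214 (no filter), and gravity withdrawn from 0 to 11 and 229. Space with gravity against land moved from 1613 calls to 2691 (DESeq2), 1072 (compared groups only), 1 (covariate) and 459 to 1614 (1 library left out, fewest without replicate 1 of space with gravity and nanoceria). Space without gravity against land moved from 607 to 1524 (DESeq2), 989 (voom), 1466 (no filter), 387 (compared groups only), 6 (covariate) and 82 to 703 (1 library left out, fewest without land replicate 1). The cause was not tested, apart from the fewer samples in the fits of compared groups. Of 268 checks of single named genes under other settings, 213 kept their side of the threshold, 40 lost a call and 15 gained one. Of 378 with 1 library left out, 278 kept it, 96 lost a call and 4 gained one. No log2 fold change of these named genes changed sign in either set. With the dominant share in the model, the members' median turned from -0.33 to 0.35 between space with gravity and land. It also turned from 0.19 to -0.21 for gravity withdrawn, and from -0.16 to 0.13 for space without gravity against land. Without the filter on low counts 36 members entered the test. With DESeq2 size factors the median of all genes in the averaged comparisons of space without gravity with land moved from -0.02 to -0.28, and the split of calls from 325 higher and 282 lower to 261 and 552. The fit on compared groups only was not run for averaged nanoceria, which uses all groups. At 3 counts the 17 larger libraries reach down to 0.193 to 1.11 CPM and the smallest to 35.7 CPM, which covers counting error only.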
